A study of Mus musculus with 87 samples.

Results

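The 10 heat shock protein genes Hspa1a, Hspa1b, Hsph1, Dnajb1, Hspa8, Hsp90aa1, Hspb1, Hsf1, Hspd1 and Hspe1 were followed by RNA-Seq through liver regeneration in the mouse. They were the rows with these gene names in a table of 37991 genes, and all 10 were among the 15396 genes that passed the filter on low values. The livers came from male C57BL/6 mice that were 12 to 14 weeks old at surgery, kept in 12 h of light and 12 h of dark, with food given in the dark. Surgery took place 2 h after lights on (ZT2, zeitgeber time). Partial hepatectomy (PH), the removal of most of the liver, gave the X groups, sham laparotomy with no tissue removed gave the S groups, and mice that were not operated on gave the C groups, with anesthesia by isoflurane in both kinds of surgery. The number in a group name is the hours after ZT2 or, with W, the weeks. There were 9 C0, 3 C4, 2 C4W, 6 S1, 5 S4, 3 S10, 3 S20, 3 S48, 6 X1, 3 X4, 6 X10, 6 X20, 3 X28, 6 X36, 3 X44, 5 X48, 3 X72, 3 X1W and 2 X4W livers, 80 in all. Each library held poly(A)-selected RNA of bulk liver, in which fewer cells of a type and less RNA per cell cannot be told apart. By the study's methods the livers were collected in 3 time periods. All C4 livers came from the third, S48, X28, X44, X48, X72 and X1W livers from the first, S10, S20, C4W and X4W livers from the second, S1, S4, X1, X10, X20 and X36 livers from the first and second, X4 livers from the first or second, and C0 livers from all of them. The labels do not say to which period a single liver of a mixed group belongs, so no term for the period was fitted. Period cannot be told apart from surgery wherever the groups compared come from different periods. It is also not balanced between X10 and S10 or X20 and S20, where only the X livers include the first period. Nor is it balanced between X44 and X20, where only X20 includes the second period, and it may not be between X28 and X4. No group compared with C0 has livers of all 3 periods, as C0 has, so period is unbalanced in every comparison with C0. Groups of different hours differ in time of day and feeding as well as in time since surgery, whereas these groups share a clock hour: C4, S4, X4 and X28 at ZT6, S10 and X10 at ZT12, S20, X20 and X44 at ZT22, and C0, S48, X48, X72 and X1W at ZT2.

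Heat shock proteins are chaperones that hold or refold proteins which have lost their shape. When such proteins build up, the transcription factor HSF1 is freed from chaperones, binds inverted repeats of the unit GAA (heat shock elements) and switches on the genes of HSP70, HSP110, HSP40, HSP90 and the small heat shock proteins. HSP60 and HSP10 form the chaperonin of mitochondria, and HSC70, the product of Hspa8, serves every cell at rest.

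The upstream sequences are shown because most of these genes are known targets of HSF1. RefSeq promoters (GRCm38.p6) were at hand for 7 members with 10 start sites, and Hspa8, Hsp90aa1 and Hsf1 had none. The 250 bases before the start are printed, from Hspa1a (chr17:34972157-34972406, minus strand), Hspa1b (chr17:34959239-34959488, minus), Hsph1 (chr5:149636337-149636586, minus), Dnajb1 (chr8:83607925-83608174, plus), Hspb1 (chr5:135887669-135887918, plus) and Hspe1 (chr1:55087898-55088147, plus). Capitals mark pairs of the GAA unit in either order, GAANNTTC or TTCNNGAA, where overlapping pairs run together.
Hspa1a: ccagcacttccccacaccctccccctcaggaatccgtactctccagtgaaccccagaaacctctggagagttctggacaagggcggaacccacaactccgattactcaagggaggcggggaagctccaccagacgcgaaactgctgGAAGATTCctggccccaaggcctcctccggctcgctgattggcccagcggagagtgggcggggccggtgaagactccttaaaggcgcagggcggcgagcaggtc
Hspa1b: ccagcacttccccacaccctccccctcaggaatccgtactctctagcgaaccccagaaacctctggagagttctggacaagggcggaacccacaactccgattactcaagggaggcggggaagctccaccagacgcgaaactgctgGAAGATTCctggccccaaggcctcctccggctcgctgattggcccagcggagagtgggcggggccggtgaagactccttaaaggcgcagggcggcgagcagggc
Hsph1: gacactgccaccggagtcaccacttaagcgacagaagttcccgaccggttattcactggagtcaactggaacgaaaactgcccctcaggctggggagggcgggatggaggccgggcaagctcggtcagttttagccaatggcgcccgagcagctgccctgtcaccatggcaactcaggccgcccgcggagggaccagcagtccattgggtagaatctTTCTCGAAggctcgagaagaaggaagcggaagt
Dnajb1: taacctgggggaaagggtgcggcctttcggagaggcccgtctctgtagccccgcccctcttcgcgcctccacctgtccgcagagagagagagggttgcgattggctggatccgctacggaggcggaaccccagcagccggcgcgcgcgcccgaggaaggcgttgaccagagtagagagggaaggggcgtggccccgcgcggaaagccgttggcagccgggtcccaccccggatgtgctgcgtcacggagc
Hspb1: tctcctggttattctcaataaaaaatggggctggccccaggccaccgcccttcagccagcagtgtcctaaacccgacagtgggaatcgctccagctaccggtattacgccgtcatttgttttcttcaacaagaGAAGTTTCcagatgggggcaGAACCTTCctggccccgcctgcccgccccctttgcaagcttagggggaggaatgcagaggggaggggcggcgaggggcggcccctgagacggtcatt
Hspe1: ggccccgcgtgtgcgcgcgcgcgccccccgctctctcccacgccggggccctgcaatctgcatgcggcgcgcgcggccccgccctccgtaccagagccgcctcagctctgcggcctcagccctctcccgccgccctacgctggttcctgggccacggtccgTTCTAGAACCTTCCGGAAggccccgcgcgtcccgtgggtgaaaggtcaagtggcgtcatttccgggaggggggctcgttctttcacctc
A pair stood in the 300-base windows (250 before to 50 after the start) of 6 of the 7 members, the exception being Dnajb1, and either pair was found in 15.06% of all 32851 mouse promoters of that length on searching both strands. Hspa1a and Hspa1b carry the same pair from 104 to 97 bases before the start. Their windows are identical at 296 of 300 bases, and the differences, counted from the 5' end with the Hspa1a base first, are C44T, T47C, T249G and C276T. In Hspe1, 3 pairs overlap from 89 to 72 bases before the start. The same stretch, read on the other strand, lies 144 to 127 bases before the second start of Hspd1, because these genes stand head to head. This stretch holds 4 alternating units, a run found (in either order) in 8 of the 32851 promoters, the windows of Hspe1 and Hspd1 among them. A run of at least 3 units, in which both kinds of pair share a unit, is in 0.603% of all promoters. Hsph1 had 1 pair before its first start and a run of 3 units, as 2 overlapping pairs, from 36 to 48 bases after it. A match is a description of the letters and not a measured binding site.

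Across the 80 libraries the depth estimated from the lowest values was 12.2 to 48.9 M reads, with a median of 26.5 M. The fewest reads estimated for a member in any library were 15 for Hspa1a, 46 for Hspa1b and 54 for Hspb1. All 8 hepatocyte markers were detected, and the 4 markers of pancreas acinar cells, all 5 of T and B cells and 3 of 6 of neutrophils (Mpo, Elane and Ly6g) had a median level under the filter. The 2 C4W libraries differed across 9432 genes by 1.1 times the noise of counting, where the next closest of 160 pairs of libraries of 1 group differed by 1.46 times and the median pair by 2.85 times (the labels give every library as an individual liver). The authors counted a read that fits several places as a fraction at each. Of all 100-base windows of the annotated transcript, 49.4% of Hspa1a and 49.9% of Hspa1b were found letter for letter elsewhere in the genome, 1350 windows being shared between them. The share was 63.8% for Hspa8, 60.4% for Hsp90aa1, 48.7% for Hspb1, 34.2% for Hspd1 and 20.4% for Hspe1, and 0 for Hsph1, Dnajb1 and Hsf1. Most such windows of Hspb1 and Hspd1 lay in annotated pseudogenes. More of those of Hspa8 lay in a lincRNA (1365 windows), and of Hsp90aa1 within Ssh2 (1655), than in pseudogenes. Those of Hspe1 lay within Commd10 (138). The levels of the 7 genes with such windows are therefore less certain than those of Hsph1, Dnajb1 and Hsf1. Hspa1a held 21.8 to 33.6% of the sum of the Hspa1a and Hspa1b levels in RPKM, and the split between these neighbours (Hspa1a at chr17:35106144-35109069 and Hspa1b at chr17:35093381-35096183, NCBIM37) varied within that range. Hspd1 (chr1:55134679-55145087, minus strand) and Hspe1 (chr1:55144976-55148151, plus strand) overlap at their 5' ends, and the counting used strand.

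Levels are given as log2 RPKM, the reads of a gene divided by its length and by the depth of the library, which compares genes per length. In C0 the geometric mean level was 142 RPKM for Hspd1, which codes for HSP60, 135 for Hspa8, 71.6 for Hspe1 (HSP10), 38.7 for Hsp90aa1 (the inducible cytosolic HSP90), 14.3 for Hspb1 (a small heat shock protein), 5.22 for Hsph1 (HSP110, which exchanges the nucleotide of HSP70), 5.00 for Dnajb1 (the HSP40 that delivers clients to HSP70) and 4.34 for Hsf1. The inducible HSP70 genes were the lowest, at 1.97 for Hspa1b and 0.714 for Hspa1a. Livers of the same group differed widely. The pooled SD within groups, on log2(RPKM + 0.25), was 0.75 for Hspa1b, 0.71 for Hspb1, 0.67 for Hspa1a and 0.62 for Hsph1, above 99%, 98.9%, 96.6% and 98.1% of the 1000 genes nearest in level. It was 0.19 for both Hsf1 and Hspd1, above 51.6% and 53.4% of such genes. A difference of a given size between groups was therefore harder to tell from the spread among livers for Hspa1a, Hspa1b, Hsph1 and Hspb1 than for most genes of their level.

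**Figure D1:**
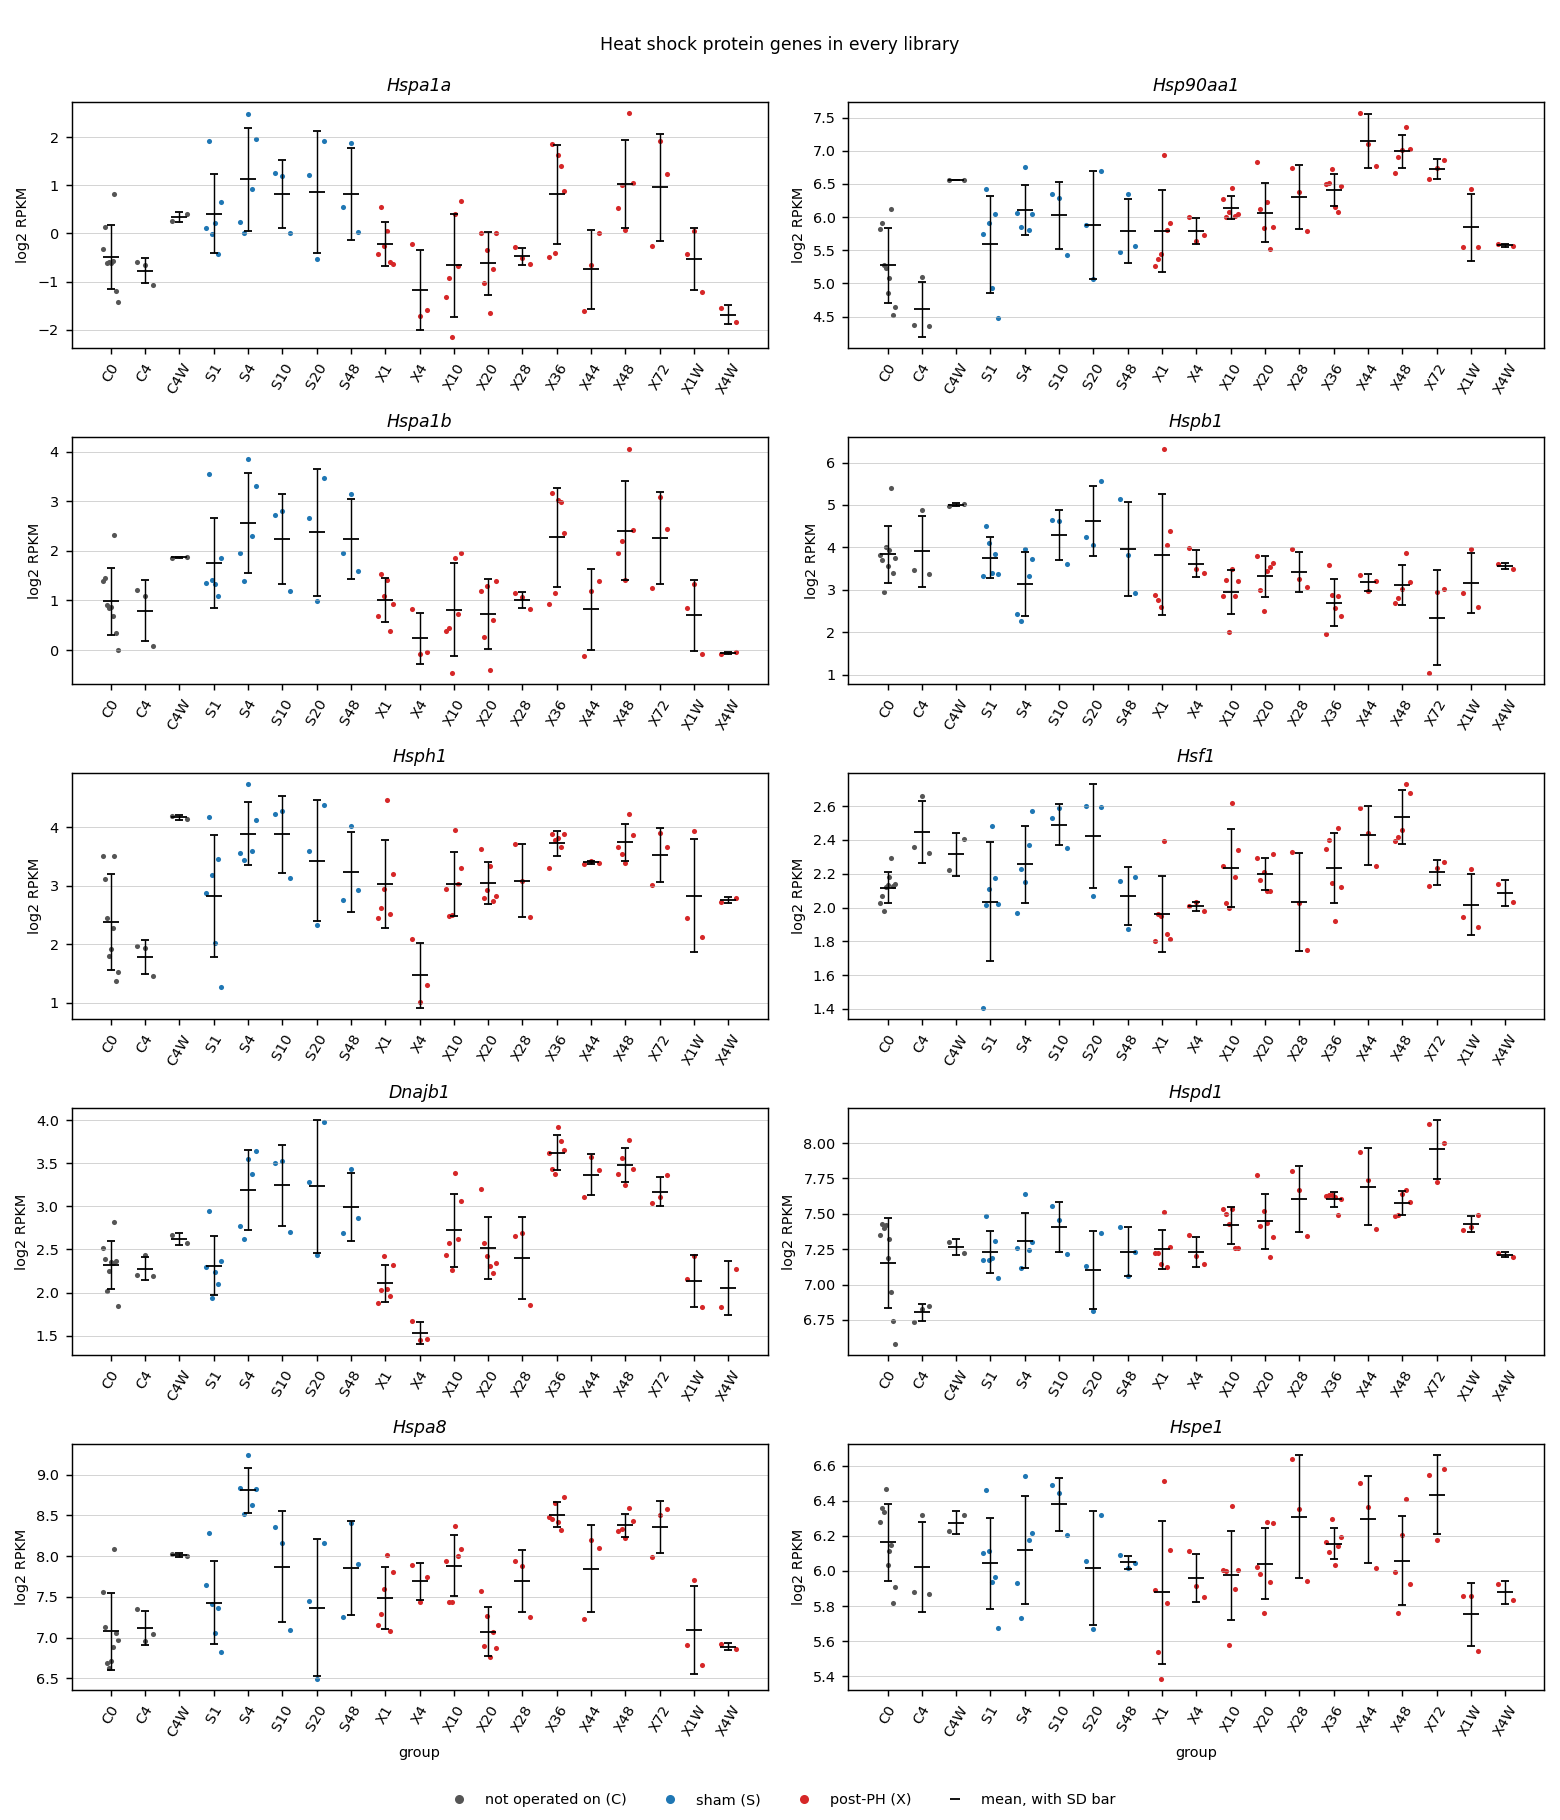
Level of each of the 10 genes in all 80 libraries (vertical axis, log2 RPKM; horizontal axis, groups in the order controls, sham, post-PH, each by time), with 1 point per liver and the group mean ± SD in black. The X4 mean is the lowest of 19 for Hsph1 (1.47) and Dnajb1 (1.53), and the S4 mean the highest for Hspa8 (8.81).

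By group means, Hspa1a and Hspa1b ran from X4W (-1.69 and -0.06 log2 RPKM) to S4 (1.12 and 2.56). Hsph1 ran from 1.47 in X4 to 4.17 in C4W, and Dnajb1 from 1.53 in X4 to 3.62 in X36. Hspa8 ran from 6.89 in X4W to 8.81 in S4. These 5 genes thus had S4 among their 6 highest groups and X4 or X4W as their lowest. Hsp90aa1 had another order, from 4.61 in C4 to 7.15 in X44. Hspd1 ran from 6.80 in C4 to 7.96 in X72, Hspb1 from 2.34 in X72 to 5.01 in C4W, Hspe1 from 5.75 in X1W to 6.43 in X72 and Hsf1 from 1.96 in X1 to 2.54 in X48. Neighbours in these orders lay closer than the pooled SD of log2 RPKM within groups in all 18 steps for 7 members, with 1 step beyond it for Dnajb1, 1 for Hsp90aa1 and 2 for Hspd1.

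At ZT6, 4 h after surgery, the sham livers were compared with livers of mice not operated on. The S4 and C4 livers were collected in different periods, so that sham surgery and period cannot be told apart in this comparison. The S4 livers had more mRNA of the inducible HSP70 genes, HSP110, HSP40, HSC70, HSP90 and HSP60. Of the samples labelled X4, 3 have no column in the table, and 4 columns named as S4 match no labelled sample and were not used, so that the 4 h groups rest on 5 S4 and 3 X4 livers. Hspa1b was at 1.22, 1.08 and 0.09 log2 RPKM in C4 and at 1.95, 1.38, 3.86, 2.29 and 3.30 in S4. All 5 S4 livers lay above the C4 livers, though by little for the lowest. Hspa1a was at -0.60, -0.65 and -1.08 in C4 and at 0.25, 0.00, 2.48, 0.93 and 1.97 in S4, again with no overlap.

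Hspa8 was at 7.36, 6.96 and 7.04 in C4 and at 8.83, 8.51, 9.24, 8.62 and 8.82 in S4, so that the sham livers lay above in every case. Hsph1 was at 1.97, 1.94 and 1.45 in C4 and at 3.57, 3.44, 4.74, 3.59 and 4.12 in S4, the groups lying well apart. By the limma test, with adjustment by the method of Benjamini and Hochberg over all genes and a threshold of 0.05 and 0.5 log2 units, 7 of the 10 members were higher in S4 and none lower. Of all genes, 43.3% were called, 12.2% higher and 31% lower (28.3% of the calls were higher, and 46% with the median of each library set equal). The median difference of the members was 1.19 log2 units, against -0.22 for all genes.

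The differences S4 minus C4 were 2.03 ± 0.44 (SE) log2 units for Hsph1 (adjusted p = 8.0e-05), 1.68 ± 0.29 for Hspa8 (1.5e-06), 1.63 ± 0.53 for Hspa1b (0.0068), 1.57 ± 0.48 for Hspa1a (0.0039), 1.49 ± 0.33 for Hsp90aa1 (0.00011), 0.88 ± 0.24 for Dnajb1 (0.0010) and 0.51 ± 0.14 for Hspd1 (0.0012). In each of the 7 genes all S4 livers lay above all C4 livers, as they did in 15.5% of all genes, and in 52.5% the groups did not overlap in 1 direction or the other. The call of Hspa1b was lost without C4 replicate 3 (1.32, adjusted p = 0.06), and Hspd1 fell under the size threshold without C4 replicate 1 (0.47) or S4 replicate 3 (0.43). Hspb1 (-0.75 ± 0.50, adjusted p = 0.20), Hsf1 (-0.18 ± 0.14, 0.26) and Hspe1 (0.10 ± 0.18, 0.67) did not pass. The sum of Hspa1a and Hspa1b, tested by the exact two-sided permutation test over livers, differed by 1.69 log2 units (p = 0.0357, the smallest that 5 against 3 livers can give, and 0.0909 after adjustment over 6 such tests). Of the neutrophil markers, 3 of the 5 tested (S100a8, S100a9 and Retnlg) were higher in S4 too, while Mpo, Elane and Ly6g were mostly under the filter. The summed neutrophil markers were at 1.07 to 4.61 RPKM in C4 and at 9.71, 6.82, 40.9, 20.8 and 28.1 RPKM in S4 replicates 1 to 5, which is the order of Hspa1a and Hspa1b among these livers. In X72 the liver with the highest sum had the lowest Hspa1a and Hspa1b, and other groups are not compared in this way. Some markers of other cells were called lower in S4, where 31% of all genes were. All 5 stellate cell markers were (median -1.26, summed level 10.5 to 10.9 RPKM in C4 and 2.46 to 3.84 in S4). So were 4 of 5 of T and B cells, all 5 of which had a median level under the filter. Lower too were 3 of 6 of macrophages (20.6 to 28.5 RPKM in C4 and 7.45 to 19.7 in S4), 2 of 5 of endothelium, 2 of 3 of erythroid cells and the 1 of skeletal muscle. Of the hepatocyte markers 2 of 8 were higher and 2 lower, and of the cholangiocyte markers 1 of 4 each way. The part of any of these lists in the result was not tested.

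**Figure D2:**
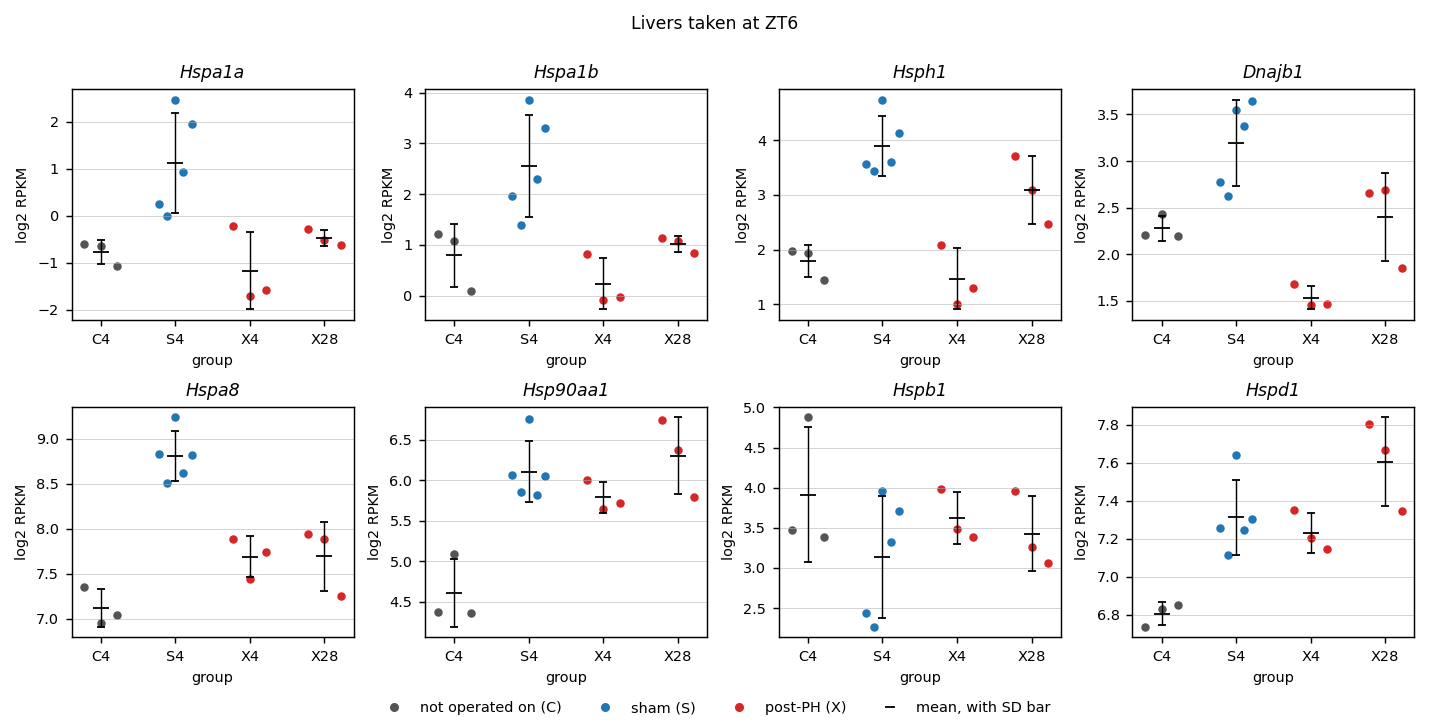
The 4 groups taken at ZT6 (horizontal axis) against the level in log2 RPKM (vertical axis) of the 8 members other than Hsf1 and Hspe1, with 1 point per liver and the mean ± SD in black. S4 lies above C4 in 7 of the 8 panels, and X4 lies under S4 without overlap in 5 of them.

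The post-PH livers of the same hour were then set against the sham livers. The S4 livers came from the first and second periods and the X4 livers from the first or second. Period may thus differ in part between these groups, and its part was not tested. The 3 X4 livers had less mRNA than the 5 S4 livers for the HSP70, HSP110, HSP40 and HSC70 genes, and all X4 livers lay under all S4 livers in each of the 5 genes, as they did in 14.7% of all genes. Dnajb1 was at 1.68, 1.45 and 1.46 log2 RPKM in X4, against 2.77, 2.62, 3.55, 3.38 and 3.64 in S4. Hsph1 was at 2.09, 1.01 and 1.30 in X4. Hspa1b was at 0.82, -0.08 and -0.04 and Hspa1a at -0.23, -1.71 and -1.58 in X4. These levels lay under every S4 liver given above.

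Hspa8 was at 7.89, 7.44 and 7.74 in X4, between the C4 and the S4 livers. Called were 5 of 10 members, all lower, where 8.64% of all genes were called and 5.48% lower (36.5% of the calls were higher, and 48.2% with equal medians). The median difference was -0.71 for the members and -0.04 for all genes. X4 minus S4 was -2.32 ± 0.44 log2 units for Hsph1 (adjusted p = 0.00011), -2.11 ± 0.53 for Hspa1b (0.0032), -1.80 ± 0.48 for Hspa1a (0.0054), -1.58 ± 0.24 for Dnajb1 (1.1e-06) and -1.11 ± 0.29 for Hspa8 (0.0049). These 5 calls were kept when any 1 of the 8 livers was left out. When only these 2 groups were fitted, Hspa1a (adjusted p = 0.0887) and Hspa1b (0.0557) no longer passed.

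The other 5 members were called neither way. Hsp90aa1 was at 6.01, 5.64 and 5.72 in X4 and at 5.81 to 6.76 in S4 (difference -0.31, 95% confidence interval -0.98 to 0.35, adjusted p = 0.63 by limma). Hspd1 differed by -0.08 (interval -0.35 to 0.19) and Hspe1 by -0.16. Hspb1 differed by 0.47 with a wide interval (-0.54 to 1.47). Hsf1 differed by -0.24 (adjusted p = 0.28). The sum of Hspa1a and Hspa1b differed by -2.15 (exact permutation p = 0.0357, adjusted 0.0909). This p is the smallest possible and follows from the groups not overlapping, so it adds nothing to that. The tests of this sum at 4 h, here and for S4 against C4, were not among those planned. None of the marker lists of other cell types had a gene called between X4 and S4. Their median differences ran from -1.03 for neutrophil to 0.17 for stellate markers, against -0.04 for all genes. The summed neutrophil markers were at 4.4 to 9.23 RPKM in X4 and at 6.82 to 40.9 in S4, and their part was not tested.

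Against C4, 2 of 10 members were called in X4, where 45.6% of all genes were, 11.7% higher and 33.9% lower (25.6% of the calls were higher, and 44.5% with equal medians). These groups come from different periods, as do X28 and C4, so that surgery and period cannot be told apart in either comparison. Hsp90aa1 was higher (1.18 ± 0.37, adjusted p = 0.0056 by limma) in all 3 X4 livers, the C4 livers being at 4.37, 5.09 and 4.37. Dnajb1 was lower (-0.70 ± 0.26, 0.0197), and C4 was at 2.20, 2.44 and 2.19. This second call was lost without C4 replicate 2 (-0.62), X4 replicate 5 (-0.66) or X4 replicate 6 (-0.67). The median of all genes was itself at -0.26 between X4 and C4. With the median of each library set equal, Dnajb1 was at -0.44 (adjusted p = 0.128), while Hspa8 (0.85, 0.0245) and Hspd1 (0.71, 2.4e-05) were called higher.

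One day later at the same clock hour, X28 was higher than C4 in Hsp90aa1 (1.69 ± 0.37, adjusted p = 0.00018), Hspd1 (0.80 ± 0.15, 2.0e-05) and Hsph1 (1.24 ± 0.49, 0.036), 3 of 10 members against 32.7% of all genes called and 14.4% called higher. Hspd1 was at 7.80, 7.67 and 7.34 log2 RPKM in X28 and at 6.73, 6.83 and 6.85 in C4. The call of Hsph1 was lost without any 1 of C4 replicates 1 to 3 (1.33, 1.31 and 1.09) or X28 replicates 1 and 2 (0.94 and 1.24). Hsf1 was at -0.39 ± 0.15 (0.033), under the size threshold, and at -0.53 and called lower without X28 replicate 1. From X4 to X28, Hsph1 (1.53 ± 0.49, 0.0102) and Dnajb1 (0.82 ± 0.26, 0.0099) were higher, 2 of 10 members where 28.3% of all genes were called, 22.6% higher (79.8% of the calls, and 56.5% with equal medians), and the median gene was at 0.20. Hsph1 was lost without X4 replicate 5 (1.33) and both were lost without X28 replicate 1 (1.23 and 0.70), and Dnajb1 also without X28 replicate 2 (0.68). Without X28 replicate 3, Hspd1 (0.50) and Hspe1 (0.53) were called as well.

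At 1 h after surgery the groups overlapped in all 10 members, as in nearly all genes, of which 0.786% did not overlap. Hspa1b had a lowest, median and highest level of 0.38, 1.01 and 1.54 log2 RPKM in the 6 X1 livers and of 1.09, 1.38 and 3.54 in the 6 S1 livers. The highest S1 liver, replicate 2, stood apart, and the next was at 1.85. By limma, 0 of 10 members were called between X1 and S1, where 0.65% of all genes were, and 0 had an unadjusted p under 0.05, where 9.29% of all genes had one. The interval of the difference was -1.53 to 0.14 for Hspa1b, -0.51 to 0.89 for Hsph1 and -0.57 to 0.18 for Dnajb1. The sum of Hspa1a and Hspa1b differed by -0.68 log2 units (exact permutation test, two-sided p = 0.0758, adjusted 0.0909). In X1 replicate 4 Hsph1 was at 4.46, Hsp90aa1 at 6.94, Hspb1 at 6.33 and Hspd1 at 7.51, each the highest of the 6, while its Hspa1b, at 1.42, was not.

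Against C0, no member was called in S1 or in X1, where 7.77% and 13.5% of all genes were. At an unadjusted p under 0.05 there was 1 member in S1 and there were 2 in X1, fewer than the 37.1% and 45.1% of all genes. With equal medians the share of calls that were higher went from 31.3% to 56.5% in S1 and from 35.9% to 51.1% in X1. The sum of Hspa1a and Hspa1b was higher in S1 than in C0 by 0.76 (exact permutation p = 0.0711) and in X1 by 0.08 (p = 0.772). The calls in X1 were sensitive to single livers. Without C0 replicate 7, Hspa8 (0.54, adjusted p = 0.0354) and Hsp90aa1 (0.62, 0.0397) were called, and Hsp90aa1 also without C0 replicate 2 (0.59) or X1 replicate 1 (0.62).

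At 10 h, at the start of the dark phase, Hspa1b was at 2.72, 2.80 and 1.19 log2 RPKM in S10, and its lowest, median and highest levels in X10 were -0.46, 0.58 and 1.97. Most X10 livers lay under the S10 livers, with overlap. Hspb1 was at 4.65, 4.62 and 3.61 in S10, and X10 ran from 2.01 by 3.04 to 3.49. Here all 6 X10 livers lay lower, as in 8.43% of all genes. By limma, 0 of 10 members were called, where 7.02% of all genes were, and 5 had an unadjusted p under 0.05, where 24.9% of all genes had one. X10 minus S10 was -1.33 ± 0.49 for Hspb1 (adjusted p = 0.064), -1.28 ± 0.51 for Hspa1b (0.092), -1.15 ± 0.46 for Hspa1a (0.096), -0.51 ± 0.23 for Dnajb1 (0.14) and -0.40 ± 0.17 for Hspe1 (0.12). Without X10 replicate 6, Hspa1a (-1.34, 0.0473) and Hspa1b (-1.49, 0.0484) passed. The sum of Hspa1a and Hspa1b differed by -1.33 (exact permutation p = 0.0714, adjusted 0.0909).

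At 20 h, Hspa1b was at 2.66, 0.98 and 3.48 log2 RPKM in S20, and X20 ran from -0.41 by 0.90 to 1.39. Dnajb1 was at 3.29, 2.43 and 3.98 in S20, and X20 ran from 2.23 by 2.39 to 3.20. The S20 livers were spread widely, and S20 replicate 2 lay among the X20 livers in both genes. Both were called lower in X20, Hspa1b at -1.52 ± 0.51 (adjusted p = 0.039 by limma) and Dnajb1 at -0.70 ± 0.23 (0.032), 2 of 10 members where 7.11% of all genes were called and 2.61% lower (63.3% of the calls were higher, and 43.2% with equal medians). Neither call held without S20 replicate 1 (-1.39 and -0.67), S20 replicate 3 (-0.99 and -0.33) or X20 replicate 4 (-1.33 and -0.66). Hspa1b was also lost without X20 replicate 2 (-1.43) and Dnajb1 without X20 replicate 5 (-0.64) or 6 (-0.66). Without S20 replicate 2, Hspa1a passed as well (-1.82, 0.0206). In the fit of these 2 groups alone no member passed (adjusted p of 0.1125 for Hspa1b and 0.207 for Dnajb1). Hspb1 was lower in all 6 X20 livers than in the 3 S20 livers (-1.28 ± 0.49), as in 6.1% of all genes, but did not pass (0.0712).

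**Figure D3:**
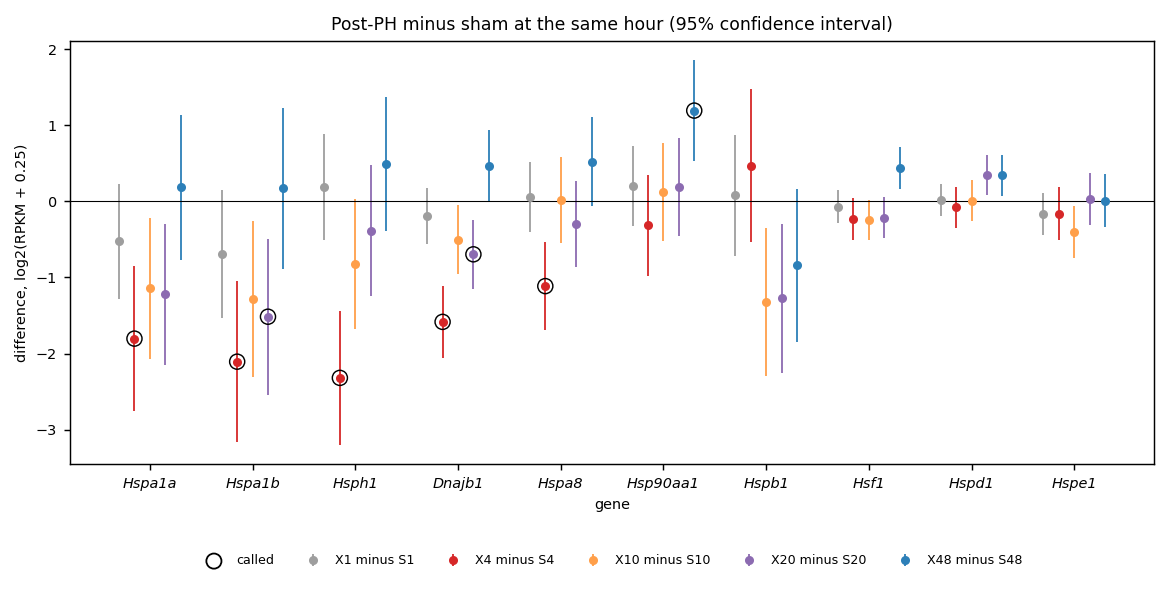
Difference between post-PH and sham livers of the same hour (vertical axis, log2(RPKM + 0.25)) for each of the 10 genes (horizontal axis), with the 95% confidence interval of the limma fit and a black ring around calls. There are 5 rings at 4 h, all under 0, 2 at 20 h and 1, for Hsp90aa1, at 48 h.

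At 48 h the picture differed. Hsp90aa1 was at 5.47, 6.35 and 5.56 log2 RPKM in S48 and at 6.66, 6.90, 7.01, 7.36 and 7.02 in X48, with all X48 livers above. It was the 1 member of 10 called (1.19 ± 0.33, adjusted p = 0.0025 by limma), where 27.2% of all genes were called, 24.5% higher. Of these calls 90.1% were higher. With the median of each library set equal, 38.8% of the calls then made were higher, so that the share of calls in each direction depended on the scaling. The median of all genes was at 0.27, and with the median of each library set equal Hsp90aa1 was at 0.70 (adjusted p = 0.102) and Hspb1 was called lower (-1.32, 0.0365). Hsf1 (0.44 ± 0.14, 0.0066) and Hspd1 (0.34 ± 0.14, 0.036) passed the p but not the size threshold, with all X48 livers above the S48 livers, as in 41.5% of all genes. Hspa1a differed by 0.18 (interval -0.77 to 1.14) and Hspa1b by 0.17 (-0.89 to 1.23). Hspa1b was at 1.96, 3.14 and 1.60 in S48 and at 1.95, 2.20, 1.41, 4.06 and 2.43 in X48. Without S48 replicate 2, Dnajb1 (0.69) and Hspa8 (0.80) were called too.

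The difference between post-PH and sham livers changed between hours for some members, by a test of that change in the same limma fit. From 1 h to 4 h it moved by -2.51 ± 0.56 for Hsph1 (adjusted p = 0.0029), -1.39 ± 0.30 for Dnajb1 (0.0020) and -1.17 ± 0.37 for Hspa8 (0.047), 3 of 10 members where 4.68% of all genes were called and 3.62% lower. For Hspa1a (-1.28 ± 0.61, 0.25) and Hspa1b (-1.42 ± 0.67, 0.26) the change did not pass. From 4 h to 10 h it moved back for Dnajb1 (1.08 ± 0.33, 0.044), 1 of 10 where 3.73% were called and 2.56% higher. From 10 h to 20 h no member passed, where 0.104% of all genes did, and 0 had an unadjusted p under 0.05, where 9.39% of all genes had one. From 20 h to 48 h it rose for Dnajb1 (1.17 ± 0.33, 0.0088) and Hsf1 (0.66 ± 0.19, 0.012), 2 of 10 where 13.2% were called, 12.5% higher (95.1% of the calls, and 48% with equal medians), and the median gene was at 0.21.

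Whole days after surgery, the livers were compared with C0 at the same ZT2. In X48 the HSP70, HSP110, HSP40, HSC70 and HSP90 genes were higher, 6 of 10 members where 38.1% of all genes were called and 30.4% higher (79.9% of the calls, and 34.1% with equal medians). The median was 1.18 for the members and 0.24 for all genes. Hsp90aa1 was higher by 1.71 ± 0.25 (adjusted p = 2.8e-08 by limma), Hspa8 by 1.30 ± 0.22 (8.1e-07), Dnajb1 by 1.12 ± 0.18 (1.8e-07), Hsph1 by 1.30 ± 0.34 (0.00063), Hspa1a by 1.25 ± 0.36 (0.0024) and Hspa1b by 1.32 ± 0.40 (0.0037). Dnajb1 was at 3.37, 3.56, 3.25, 3.77 and 3.44 in X48, against a lowest, median and highest C0 level of 1.84, 2.35 and 2.82. All X48 livers lay above all C0 livers for Dnajb1, Hspa8, Hsp90aa1, Hsf1 and Hspd1, 5 of 10 members where 30.2% of all genes did so. Hspa1b was lost without X48 replicate 4 (0.92, 0.054). Scaled to the same median, Hspa1b was at 0.86 (0.0582), and Hspb1 (-1.19) and Hspe1 (-0.60) were called lower. Against C0 replicates 1 to 3 alone, 3 of the 6 calls were made (Dnajb1, Hspa8 and Hsp90aa1).

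In X72, 8 of 10 members were called, 7 higher and 1 lower, where 33.2% of all genes were called, 26.6% higher and 6.59% lower (80.1% of the calls were higher, and 40.8% with equal medians). Hspd1 was at 8.14, 7.72 and 8.00, above all 9 C0 livers (0.80 ± 0.12, adjusted p = 1.8e-07), whose highest was 7.43. Hsp90aa1 was higher by 1.45 ± 0.30 (5.3e-05), Hspa8 by 1.28 ± 0.27 (4.8e-05) and Dnajb1 by 0.82 ± 0.21 (0.0010). Hspa1a (1.20 ± 0.44), Hspa1b (1.18 ± 0.48) and Hsph1 (1.09 ± 0.40) were higher too, and none of these 3 passed without X72 replicate 2 (0.77, 0.78 and 0.91) or X72 replicate 3 (1.09, 1.10 and 1.03). Hspa1b was also lost without C0 replicate 8 (1.11) or 9 (1.07). Hspb1 was lower (-1.43 ± 0.46, 0.0069), at 1.05, 2.96 and 3.02 against 2.96 to 5.40 in C0, and without X72 replicate 1 it was at -0.83 (0.202). In that liver the summed neutrophil markers were at 30.9 RPKM, against 7.17 and 3.53 in the others, and their part was not tested. Its Hspa1a (-0.26 log2 RPKM) and Hspa1b (1.25) were the lowest of the group. With the median of each library set equal, 3 of the 8 calls were made. Against C0 replicates 1 to 3 alone, Hspa1a (1.05), Hspa1b (0.94), Hsph1 (0.49) and Hspb1 (-1.09) no longer passed, and neither did Hspa1b against C0 replicates 4 to 6 (1.35) or 7 to 9 (1.24) alone, nor Hspa1a against replicates 7 to 9 (1.23).

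The sham livers at 48 h were higher than C0 in Dnajb1 (0.65 ± 0.21, adjusted p = 0.028) and Hspa8 (0.77 ± 0.27, 0.034), 2 of 10 members where 8.88% of all genes were called and 3.83% higher. Hspa8 was at 7.26, 8.41 and 7.90 in S48, within the range of C0 (6.63, 6.98 and 8.09 as the lowest, median and highest) but for 1 liver. Both calls were lost without S48 replicate 2 (0.43 and 0.50) or 3 (0.71 and 0.75). Dnajb1 was also lost without C0 replicate 9 (0.59) and Hspa8 without C0 replicate 3 (0.72), 4 (0.72) or 9 (0.76). Hspa1a (1.06 ± 0.44, 0.080) and Hspa1b (1.15 ± 0.48, 0.088) did not pass.

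Among mice that were not operated on, C4 and C0 differ in the clock hour. No member was called, where 7.89% of all genes were (73.6% of the calls higher, and 51.4% with equal medians), and 3 had an unadjusted p under 0.05, where 29.9% of all genes had one. Hspd1 was at 6.73, 6.83 and 6.85 in C4 and at 7.35, 7.43, 7.40, 7.42, 7.19, 7.32, 6.94, 6.74 and 6.58 in C0 replicates 1 to 9. The last 3 C0 livers lay near C4. The difference was -0.35 ± 0.12 (adjusted p = 0.046) with all C0 livers, and -0.59 and -0.51, past both thresholds, against C0 replicates 1 to 3 or 4 to 6 alone. Against C0 replicates 7 to 9 alone it was 0.05 (adjusted p = 0.93 by limma). Of all genes, 16.7%, 17.9% and 1.13% were called against these 3 sets of C0 livers in turn. All C4 livers came from the third period, and which C0 livers did is not labelled.

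At other clock hours than ZT2, comparisons with C0 hold time of day, feeding and surgery together, which cannot be told apart. With equal medians the share of all calls that were higher went from 61.4% to 36.9% in S10, 58.3% to 38.3% in X10, 64.6% to 36% in S20, 68.4% to 37.5% in X20, 73.5% to 38.1% in X36 and 78.5% to 33.8% in X44. In S10, 6 of 10 members were higher than in C0 (29.1% of all genes called, 17.9% higher), with Hsph1 at 1.44 ± 0.40 (adjusted p = 0.0024) and Dnajb1 at 0.89 ± 0.21 (0.00045). Hspa1a (1.05), Hspa1b (1.15), Hspa8 (0.79) and Hsp90aa1 (0.75) were all lost without S10 replicate 1 (0.87, 0.93, 0.55 and 0.58) or 2 (0.89, 0.89, 0.64 and 0.62). Without single C0 livers Hspa1b was lost for replicates 3 to 6, 8 and 9 (1.05 to 1.14), Hspa1a for 8 (0.99) and 9 (0.97), and Hsp90aa1 for 5 (0.70), 8 (0.65) and 9 (0.67). In X10, Hspa8 (0.80 ± 0.21, 0.00076) and Hsp90aa1 (0.87 ± 0.24, 0.0014) were higher and Hspb1 lower (-0.87 ± 0.36, 0.033), 3 of 10 where 36.4% were called, 21.2% higher and 15.2% lower. Hspb1 was lost without C0 replicate 7 (-0.68) or X10 replicate 1 (-0.85), 3 (-0.69) or 5 (-0.85), and Hsph1 was gained without C0 replicate 1 (0.75) or 7 (0.75).

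In S20, Dnajb1 (0.88 ± 0.21, adjusted p = 0.0016), Hspa1a (1.12 ± 0.44, 0.049) and Hspa1b (1.29 ± 0.48, 0.041) were higher than in C0, 3 of 10 where 12.1% of all genes were called and 7.85% higher. All 3 were lost without S20 replicate 3 (0.52, 0.67 and 0.77). Hspa1a and Hspa1b were also lost without S20 replicate 1 (0.99 and 1.16) or C0 replicates 6 (1.11 and 1.26), 8 (1.06 and 1.22) or 9 (1.04 and 1.19), and Hspa1a without C0 replicates 1 (1.14), 3, 4 or 5 (1.11 each). Hsph1 was gained without C0 replicate 1 (1.14), 2 (1.10) or 7 (1.14), and with Hsp90aa1 (1.01) without S20 replicate 2 (1.55). In X20 Hsp90aa1 alone was higher (0.79 ± 0.24, 0.0046), 1 of 10 where 24.1% were called and 16.5% higher, and Hsph1 was gained without C0 replicate 1 (0.76) or 7 (0.76).

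In X36, taken in the dark at ZT14, 7 of 10 members were called, 6 higher and Hspb1 lower, where 35% of all genes were called, 25.7% higher and 9.29% lower. Hspa8 had a lowest, median and highest level of 8.33, 8.46 and 8.73 in X36, above all C0 livers, and differed by 1.43 ± 0.21 (adjusted p = 2.4e-08). Dnajb1 was at 3.38, 3.64 and 3.92 and differed by 1.26 ± 0.17 (2.0e-09). Hspa1b was split, at 0.93 and 1.15 in 2 livers and at 2.37 to 3.17 in the other 4, and differed by 1.19 ± 0.38 (0.0056). Hspb1 differed by -1.10 ± 0.36 (0.0070). These 7 calls held when any 1 liver was left out. With X36 replicates 1 to 3 alone, Hspa1a (0.67, adjusted p = 0.208 by limma) and Hspa1b (0.70, 0.228) no longer passed, and with replicates 4 to 6 alone all 7 did. Against C0 replicates 1 to 3 alone Hspa1a (0.93), Hspa1b (0.96), Hsph1 (0.68) and Hspb1 (-0.76) were lost, and against C0 replicates 4 to 6 alone Hspb1 was (-1.10, 0.0533). Against C0 replicates 7 to 9 alone Hspd1 was called higher as well (0.84).

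In X44, 5 of 10 members were higher than in C0 (39.2% of all genes called, 30.8% higher), with Hsp90aa1 at 1.87 ± 0.30 (adjusted p = 3.2e-07) and Dnajb1 at 1.01 ± 0.21 (5.1e-05). The calls of Hsph1 (0.97), Hspa8 (0.76) and Hspd1 (0.54) depended on single livers and on the scaling. With the median of each library set equal, these genes were at 0.47, 0.24 and 0.02 (adjusted p = 0.34, 0.47 and 0.92 by limma). Hspb1 was then called lower (-1.15, 0.028). Hsph1 was lost without any X44 liver (0.98, 0.95 and 0.97) and without C0 replicate 4 (0.90), 5 (0.91), 8 (0.85) or 9 (0.87). Hspa8 was lost without X44 replicate 2 (0.59) or 3 (0.64), and Hspd1 without X44 replicate 1 (0.42) or C0 replicate 8 (0.49) or 9 (0.47). At the same clock hour a day earlier, in X20, Hsp90aa1 was at 5.52 to 6.83, and in X44 it was at 7.57, 7.10 and 6.77. From X20 to X44, Hsp90aa1 (1.08 ± 0.32, 0.0079), Dnajb1 (0.82 ± 0.23, 0.0039) and Hspa8 (0.77 ± 0.28, 0.035) were higher, 3 of 10 where 16.1% were called and 12.9% higher (80.6% of the calls, and 43.9% with equal medians). Hsp90aa1 was lost without X44 replicate 1 (0.87), and Hspa8 without X44 replicate 2 (0.59) or 3 (0.64) or X20 replicate 2 (0.73), 4 (0.71) or 6 (0.73). With equal medians, Dnajb1 alone of the 3 passed in limma (Hspa8 0.49, Hsp90aa1 0.79).

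At 1 week no member was called against C0 by limma, where 16.9% of all genes were (73.5% of the calls higher, and 36% with equal medians), and 2 had an unadjusted p under 0.05, where 42.6% of all genes had one. Hspe1 was at 5.85, 5.86 and 5.54 log2 RPKM in X1W (-0.41 ± 0.16, adjusted p = 0.043, under the size threshold), and at -0.63 and called after scaling to the same median. At 4 weeks no member was called between X4W and C4W either, where 0.065% of all genes were, and 6 had an unadjusted p under 0.05, where 4.06% of all genes had one. All 10 members were lower in both X4W livers than in both C4W livers, as were 24.5% of all genes, and with 2 livers a group 50.1% of all genes did not overlap. Hspa8 was at 6.92 and 6.86 in X4W and at 8.03 and 8.00 in C4W (-1.13 ± 0.40, adjusted p = 0.87). Hsph1 was at 2.72 and 2.80 against 4.20 and 4.13, and Hspb1 at 3.60 and 3.50 against 4.99 and 5.04. The C0 mean was 7.08 for Hspa8, 2.385 for Hsph1 and 3.83 for Hspb1, nearer to X4W than to C4W. The same held for Dnajb1, Hsp90aa1, Hsf1 and Hspd1. For Hspa1a (-0.49), Hspa1b (0.98) and Hspe1 (6.16) the C0 mean lay nearer to C4W. C0 was not tested against either of these groups. The median difference was -1.05 for the members and 0.00 for all genes. The clock hour of C4W is not stated, and the C4W pair is the one that differed by little more than counting noise.

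Other genes of the chaperone network came from lists given by role. Their counts stand against all genes, of which 12.2% were called higher and 31% lower in S4 than in C4, 11.7% and 33.9% in X4 than in C4, and 3.16% and 5.48% in X4 than in S4. Of the 9 chaperones of the endoplasmic reticulum, 8 were higher in S4 than in C4 and 0 lower (median 1.53), among them Dnajb9 (2.83 ± 0.32), Hyou1 (2.54 ± 0.38) and Hspa5, which codes for BiP (2.33 ± 0.34). All 9 were lower in X4 than in S4 (median -1.64), with Pdia4, a disulfide isomerase, at -2.20 ± 0.28. Of 13 genes of HSP90 and its co-chaperones, 1 was higher and 2 lower in S4 than in C4, and 7 were lower and 0 higher in X4 than in S4 (median -0.64). Among the latter were Chordc1 (-1.15 ± 0.27), Cacybp (-1.03 ± 0.21) and Stip1, which links HSP70 to HSP90 (-1.004 ± 0.24). The median of all genes was -0.22 for S4 minus C4 and -0.04 for X4 minus S4.

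Of 22 other genes of HSP70, HSP110 and J-domain proteins, 5 were higher and 5 lower in S4 than in C4, and 1 higher and 5 lower in X4 than in S4. Bag3, a nucleotide exchange factor of HSP70 and a known HSF1 target, was higher by 2.29 ± 0.22 in S4 than in C4 (adjusted p = 1.3e-13), lower by -0.81 ± 0.22 in X4 than in S4 (0.0067), and higher by 1.49 ± 0.24 in X4 than in C4 (5.1e-07). Among 5 small heat shock proteins other than Hspb1, Hspb8 was higher in S4 (1.71 ± 0.19) and in X4 (1.59 ± 0.21) than in C4, while 4 were lower in each. Of these 4, Hspb2 had a mean under the filter level in C4 (-2.32 log2 RPKM), S4 (-6.18) and X4 (-10.5). Among 5 relatives and regulators of Hsf1, 4 were lower in S4 than in C4 and 4 in X4, with Hsf2 at -1.13 ± 0.16 and -1.82 ± 0.18 and Hsf4 at -1.71 ± 0.17 and -2.10 ± 0.19, where Hsf1 itself was not called. Of the 2 cold-inducible RNA-binding proteins, which heat is known to lower, Cirbp was lower in S4 (-2.74 ± 0.24) and in X4 (-2.17 ± 0.27) than in C4, and Rbm3 was lower in S4 (-0.75 ± 0.24). The 11 mitochondrial chaperones and proteases other than Hspd1 and Hspe1 had 1 higher and 3 lower in S4 than in C4 and 1 higher, Clpx (0.92 ± 0.16), in X4 than in S4. Of the 13 genes of TRiC, the cytosolic chaperonin, and prefoldin, none was called between X4 and S4. Of 7 other known heat shock targets, 2 were higher and 2 lower in X4 than in S4.

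**Figure D4:**
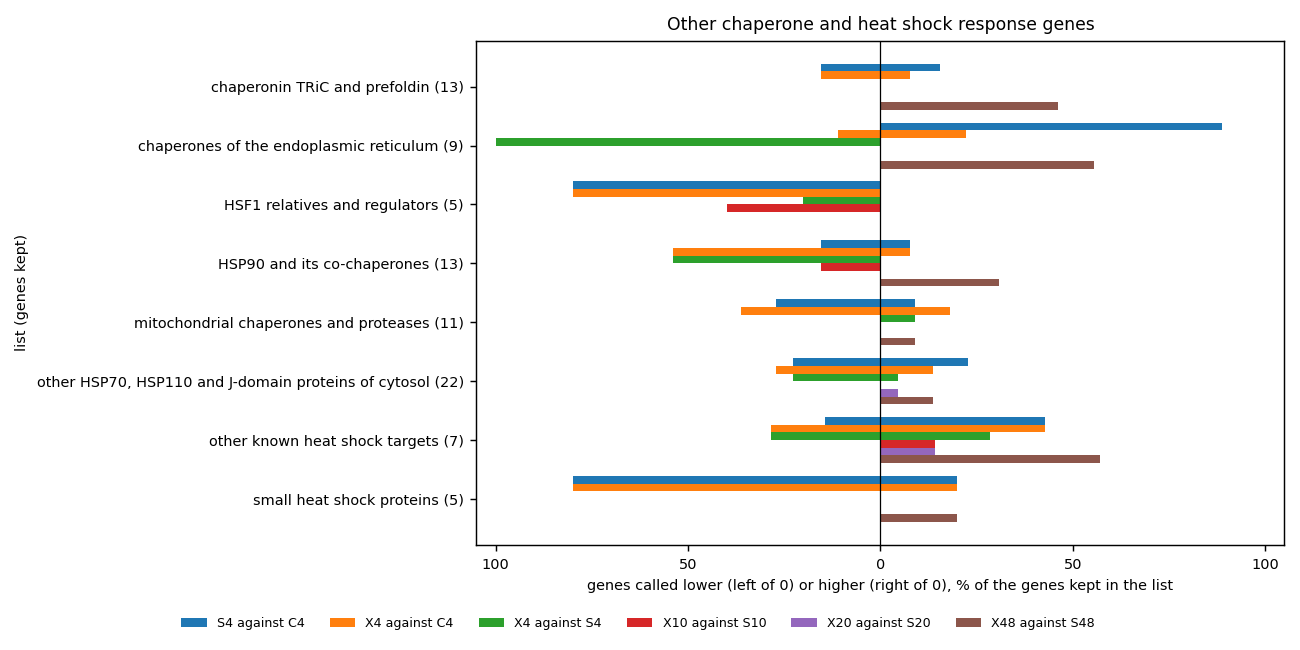
Share of the genes of each list called higher (right of 0) or lower (left of 0) in 6 comparisons (horizontal axis, % of the genes kept; vertical axis, lists with their number of genes kept). All 9 chaperones of the endoplasmic reticulum are lower in X4 than in S4, and 6 of the 13 genes of TRiC and prefoldin are higher in X48 than in S48.

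At 10 h and 20 h few genes of these lists differed between post-PH and sham livers, where 7.02% and 7.11% of all genes were called. Rbm3 was higher in X10 (1.04 ± 0.23) and X20 (1.03 ± 0.23), and Tgm2, a transglutaminase, in X10 (1.33 ± 0.20) and X20 (0.74 ± 0.20). Of the HSP90 list, Fkbp4 (-0.82 ± 0.22) and Ahsa2 (-0.56 ± 0.17) were lower in X10. At 48 h, 6 of 13 genes of TRiC and prefoldin were higher in X48 than in S48 (median 0.49, against 0.27 for all genes), with Vbp1 at 1.55 ± 0.16, Tcp1 at 0.68 ± 0.12 and Cct7 at 0.65 ± 0.13. The HSP90 list had 4 of 13 higher, Stip1 among them (0.73 ± 0.24), and the endoplasmic reticulum list 5 of 9. Of all genes 24.5% were higher, so that the share of the HSP90 list was near that of all genes.

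As a description over the 19 group means, which share livers, depth and scaling, Hsph1 was most like Gm7816 (Pearson r = 0.843), Hsp90ab1, the constitutive cytosolic HSP90 (0.839), Stip1 (0.839), Zswim1 (0.834) and P4ha1 (0.821) of 11551 genes compared. Among the members its r was 0.778 with Dnajb1, 0.727 with Hspa1b, 0.688 with Hsp90aa1, 0.632 with Hspa8 and 0.018 with Hspb1. Hspd1 was most like Gm12141 (0.975), a pseudogene copy with which it shares 765 of the 100-base windows, and then Gfm1 (0.930), Pgam1 (0.924), Pgam1-ps2 (0.912) and Calu (0.899). Its r was 0.840 with Hsp90aa1, 0.510 with Hspe1 and -0.668 with Hspb1.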

How the data were processed

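RNA-Seq was made from 87 labelled mouse livers, of which 80 had a column in the deposited table and were analysed. The table holds log2 RPKM for 37991 genes, made by the authors from 100-nt single-end reads of stranded poly(A) libraries with TopHat2 2.0.13, Bowtie2, SAMtools 0.1.19 and featureCounts on mm9, a read with several positions counting as a fraction at each and a gene without reads standing at -14.29. In all, 84 columns hold values, and 4 of them match no labelled sample and were not used. Since the unit is log2 RPKM and whole reads could be recovered for a median of 76.4% of low values (tolerance 0.05), no count test was run. Depth was estimated from the spacing of low values.

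Values were set to log2(RPKM + 0.25), so that fold changes understate those of low genes. The 15396 genes above -1.5 log2 RPKM in at least 1 library were fitted with limma 3.58.1 in R 4.3.3, with a coefficient for each of 19 groups and a trended variance. Calls needed a Benjamini-Hochberg adjusted p under 0.05 over all genes and a change above 0.5 log2 units. The method was tested on simulated data. Summed Hspa1a and Hspa1b levels were compared with the exact permutation test over livers, two-sided. Per the labels each library is from an individual liver. The period of collection is not labelled for single livers and was not modelled; splits by replicate number were tried. All members are named, and of each list up to 3 called genes per comparison with the largest changes. The members and lists were chosen with earlier results of these data known. Columns were compared for shared replicate numbers, and correlations of same-numbered deviations were not all above 0.1 in any comparison. Promoters were those of RefSeq on GRCm38.p6, and gene positions those of NCBIM37.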

Additional observations from a re-analysis of the deposited data

Results flagged for a closer look

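Of 80 sets of 5 to 9 livers (a member in a group), 8 had 1 liver apart from the others by Dixon's criterion, which chance alone gives in about 1 of 20. In X1 replicate 4, Hsph1 (4.46 log2 RPKM), Hsf1 (2.39) and Hspd1 (7.51) were each far above the other 5 livers. Hspa1b stood at 3.54 in S1 replicate 2, Dnajb1 at 3.20 in X20 replicate 1, Hsp90aa1 at 6.76 in S4 replicate 3 and Hspb1 at 5.40 in C0 replicate 7, each the highest of its group. Hspd1 in X36 replicate 5 was the lowest of its group at 7.50, where the other 5 lay close together.

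Of 40 tests of whether the difference between post-PH and sham livers changed between successive hours, 6 passed (limma, adjusted over all genes). From 1 h to 4 h the changes were -2.51 log2 units for Hsph1, -1.39 for Dnajb1 and -1.17 for Hspa8. From 4 h to 10 h the change was 1.08 for Dnajb1. From 20 h to 48 h the changes were 1.17 for Dnajb1 and 0.66 for Hsf1.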

How the results depend on the processing

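The counts of members called (of 10) moved by more than 1.5 times as follows, and the cause was not tested. With C0 replicates 1 to 3 alone they were 2 for C4 against C0, 0 for S48, 3 for X48, 4 for X72, 1 for X1W, 1 for S10, 1 for X10, 1 for S20, 0 for X20, 3 for X36 and 2 for X44. With C0 replicates 4 to 6 alone they were 1 for C4, 1 for S48, 1 for X1 and 2 for X20, and with C0 replicates 7 to 9 alone 0 for S48, 1 for X1W and 2 for X20. With the median of each library set equal they were 4 for X20 against S20, 1 for X44 against X20, and against C0 3 for X72, 1 for X1W, 1 for X1, 2 for S10, 1 for S20 and 3 for X44, and 3 changes of the difference between hours passed in place of 6. In fits of the 2 compared groups alone they were 3 for X4 against S4, 1 for X10 against S10, 0 for X20 against S20, and against C0 0 for S48, 1 for S20 and 3 for X44. With no filter on low values they were 0 for X20 against S20, and against C0 0 for S48, 3 for S10 and 1 for S20. With replicates 1 to 3 of groups of 6 they were 1 for X1 against S1, 5 for X10 against S10, 1 for X20 against S20, 0 for X44 against X20, 3 for S1 against C0 and 2 for X1 against C0, where Hspb1 reversed to -1.07. With replicates 4 to 6 they were 2 for X1 and 0 for X20 against C0. Hspa1a alone gave 0.71 for S1 against C0 by the exact permutation test.

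The labels do not say what samples with 1 replicate number share, nor the collection period of a single liver. It is therefore not known whether the splits by number above follow the periods. With the replicate block the counts were 3 for X10 against S10, 4 for X20 against S20, 2 for C4 against C0 and 3 for X44 against C0. Leaving out 1 library gave 2 to 6 for S10 against C0, 0 to 5 for S20, 0 to 2 for S48, 0 to 2 for X1, 1 to 2 for X20, 3 to 5 for X44 and 5 to 8 for X72 against C0, 0 to 2 for X10 against S10, 0 to 3 for X20 against S20, 1 to 3 for X48 against S48, 0 to 4 for X28 against X4 and 1 to 2 for X4 against C4. Of 280 single values, 279 kept their side of the threshold with a pseudocount of 0.05 and 276 with 1.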
